A study of Mus musculus with 5 samples.

Results

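The myotendinous-junction-like tenocytes of uninjured skeletal muscle were 160 of the 4632 cells retained from the d0 library, a share of 3.45% with an exact binomial 95% interval from 2.95 to 4.02%. They were chosen by a marker rule. A cell of that library was a member when at least 3 of the 6 genes Chodl, Col22a1, Ptx4, Thbs4, Tnmd and Kera had 1 or more unique molecular identifiers (UMIs, 1 for each captured RNA molecule) and when more of these genes were detected than of Chad, Wif1, Cilp2, Angptl7, Col11a2 and Comp. Retained cells had 350 to 8000 detected genes, under 20% of UMIs on mitochondrial genes and at least 1000 UMIs. Across all 5 libraries of the series 29831 cells passed these limits. The levels of the 12 genes of the rule chose the cells and are given only as a description.

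The myotendinous junction is the end of the muscle fibre where contractile force passes through the fibre membrane into the collagen fibrils of the tendon. Tenocytes are the fibroblasts that make and maintain those fibrils, under transcription factors such as Scleraxis (Scx) and Mohawk (Mkx). Collagen XXII, the product of Col22a1, is known as a matrix protein of this junction.

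The d0 cells were GFP+ cells sorted by FACS from the hindlimb muscles of uninjured Prx1Cre;mTmG mice on a C57Bl/6 background. In these mice Cre driven by Prx1, a gene of the limb mesenchyme, switches a membrane reporter from tdTomato to GFP, so the sort admits cells of that lineage and leaves out muscle fibres and most blood and endothelial cells. Tendons were trimmed off at dissection. The other libraries held the same kind of sorted cells d3 or d5 after a tibial fracture, or after a polytrauma that adds injury of the surrounding muscle. Each condition had 1 library of pooled mice, so no difference was tested, and the intervals below cover counting error only.

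The members had from 1052 to 15829 UMIs per cell, with a median of 4128, against a median of 3630 in the other 4472 cells of the library. They held 721173 UMIs in all. The reporter was present as the sort requires. EGFP stood at 2639 CPM (the UMIs of a gene in a group of cells, as a rate over the UMIs of every gene there) in the members and at 2423 CPM in the other cells, and 98.8% of members had an EGFP UMI. No tdTomato UMI was found. Barcodes also found in another library numbered 6 among the members and 85 among all retained d0 cells.

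Chodl, which encodes the membrane lectin chondrolectin, lies at chr16:78930948-78951733 on the plus strand of GRCm38, and Tnmd, which encodes the tendon membrane protein tenomodulin, at chrX:133850980-133865577 on the plus strand. Fam159b, a small membrane protein gene now named Shisal2b, lies at chr13:104845283-104863893 on the minus strand. The stretches of 250 bases that precede the RefSeq starts of these genes are shown because Chodl and Tnmd are leading markers and Fam159b was the gene outside the rule with the highest ratio to the other cells. Capitals mark the hexamer CANNTG, the E-box bound by basic helix-loop-helix factors such as Scleraxis, which reads the same on both strands. The stretches come from RefSeq on GRCm38.p6, at chr16:78930698-78930947 (plus strand), chrX:133850758-133851007 (plus strand) and chr13:104863894-104864143 (minus strand).
Chodl: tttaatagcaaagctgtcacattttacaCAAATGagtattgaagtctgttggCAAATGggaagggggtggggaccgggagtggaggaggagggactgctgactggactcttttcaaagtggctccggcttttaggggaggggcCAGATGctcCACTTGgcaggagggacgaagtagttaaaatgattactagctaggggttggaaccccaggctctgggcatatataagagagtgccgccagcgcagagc
Tnmd: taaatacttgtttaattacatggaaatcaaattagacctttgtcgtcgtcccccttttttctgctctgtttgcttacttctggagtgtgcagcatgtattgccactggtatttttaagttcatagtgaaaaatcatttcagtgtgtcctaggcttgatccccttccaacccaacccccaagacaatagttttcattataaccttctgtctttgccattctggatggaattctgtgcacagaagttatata
Fam159b: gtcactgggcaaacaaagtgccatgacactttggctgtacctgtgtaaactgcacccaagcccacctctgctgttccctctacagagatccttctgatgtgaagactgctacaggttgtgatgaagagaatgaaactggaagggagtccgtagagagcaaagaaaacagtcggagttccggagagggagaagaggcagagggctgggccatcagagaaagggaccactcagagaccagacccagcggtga
The Chodl stretch held 4 matches, a number reached by 3.83% of the 32851 promoter stretches of the same length. The Tnmd and Fam159b stretches held 0, as did 33.8% of all stretches. A match is a run of letters and was not measured as a binding site.

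Thbs4 and Tnmd were detected in each of the 160 members, and the other markers in part of them. Thbs4 encodes thrombospondin-4, a matrix protein of tendon and muscle attachments. Its UMIs per 10000 UMIs of a cell ran from 0.874 to 251 over the members with a median of 52.4. Tnmd ran from 0.874 to 194 with a median of 41.2. Both were thus present over a wide range, without a member at 0.

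Chodl had a median of 15.2 UMIs per 10000 and a highest value of 84.3, with 19 members at 0. Col22a1 had a median of 2.93 and a highest value of 32.1, with 60 members at 0. Ptx4, a gene of the pentraxin family, had a median of 5.11 and a highest value of 29.3, with 32 members at 0. Kera, which encodes the small proteoglycan keratocan, had a median of 15.7 and a highest value of 128.5, with 38 members at 0. All 6 markers were found together in 66 members, 5 in 53, 4 in 27 and 3 in 14. The most common incomplete set lacked only Col22a1 (23 members), followed by the set without Kera (22 members).

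The markers fell into 2 kinds when the members were set beside the 237 Chad Wif1 Cilp2 tendon-like cells of the same library, which had at least 3 genes of the second set and more of them than of the first. Thbs4, Tnmd and Kera were abundant in both. Thbs4 stood at 5339 CPM in members and 2312 CPM in Chad Wif1 Cilp2 cells, Tnmd at 4538 and 2601 CPM, and Kera at 2062 and 1248 CPM. Chodl, Col22a1 and Ptx4 were mostly in the members. Chodl stood at 1757 CPM against 15.6 CPM in Chad Wif1 Cilp2 cells, Col22a1 at 520 against 4.46 CPM (6 UMIs in 2 cells), and Ptx4 at 648 against 48.3 CPM.

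Chad, Comp, Cilp2, Col11a2 and Angptl7 of the second set were found in a larger share of members than of mural cells. The mural cells left out members and Chad Wif1 Cilp2 cells by definition. Their low shares of these genes follow in part from that, so the comparison is only a description. A Chad UMI was found in 29.4% of members and in 5.70% of the 789 mural cells of the library (26.8 and 2.70% after each cell was thinned to 2000 UMIs), and a Comp UMI in 41.25 and 3.80%. For Cilp2 the shares were 41.25 and 1.14%, for Col11a2 15 and 2.66%, and for Angptl7 11.25 and 1.39%. A Wif1 UMI was found in 6 members (3.75%, 1.39 to 7.98%) and in 0.887% of mural cells (0.357 to 1.82%), with intervals that overlap. Median depths were 4128 and 4288 UMIs. Chad, which encodes the matrix protein chondroadherin, stood at 510 CPM in members against 3837 CPM in Chad Wif1 Cilp2 cells, Comp at 484 against 1864 CPM, and Wif1, a secreted Wnt inhibitor, at 22.2 against 1109 CPM.

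**Figure D1:**
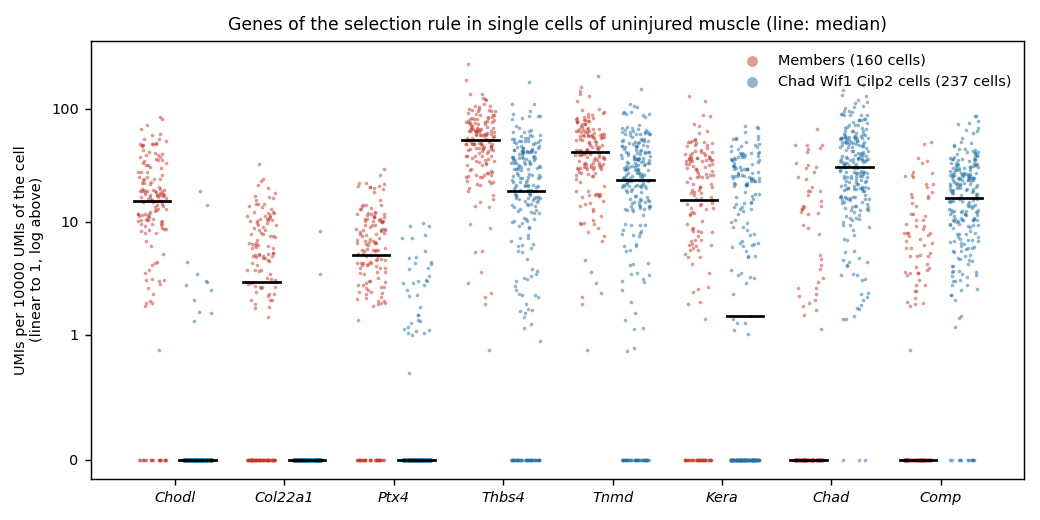
Each point is 1 cell, with UMIs per 10000 UMIs of that cell on an axis that is linear to 1 and logarithmic above, for 160 members (red) and 237 Chad Wif1 Cilp2 cells (blue), and lines mark medians. Chodl has a median of 15.2 in members and 0 in the Chad Wif1 Cilp2 cells, while Thbs4 and Tnmd are high in both. These genes chose the cells.

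At the edge of the rule, the 14 members with 3 markers had Chodl at 412.5 CPM, Thbs4 at 2439 CPM and 0 UMIs of Col22a1. The 85 cells just outside, with 2 markers and fewer genes of the second set, had Chodl at 23.7 CPM, Thbs4 at 258 CPM and Col22a1 at 7.89 CPM. The 28 cells left out because both sets were level had Chodl at 537 CPM and Tnmd at 4470 CPM, close to the 565 and 4384 CPM of the 23 members that had 1 marker more. A further 135 cells with at least 3 markers had more genes of the second set. The boundary towards the Chad Wif1 Cilp2 cells therefore runs through cells with like marker levels.

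Outside the rule, the genes with the highest ratios to the other cells were led by Fam159b, Spock3, Insc, Prph and Scx. Of 9071 genes with at least 100 UMIs over all retained d0 cells, 93 stood at least 4-fold higher in members than in the other cells (1.03%) and 543 at least 4-fold lower (5.99%). The median ratio was 0.966. The members were chosen on UMIs of the same cells, so these counts are a description and no test. For 57 of the higher and 88 of the lower genes the whole 95% interval of the ratio lay past 4-fold. Of the 20 leading genes 10, Fam159b, Spock3, Insc, Prph, Scx, Pla2g7, Etv4, Rapgef4, Cdh2 and Edil3, had under 100 UMIs in the other cells and passed the minimum only with the UMIs of the members.

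Fam159b led the list. It had 123 UMIs in 48 members, 170.6 CPM, and 5 UMIs in all 4472 other cells, 0.299 CPM, a ratio of 570 (95% interval 238 to 1787). It had a UMI in 30% of members (16.99% after thinning, with 7 members and 737 other cells too shallow to enter). Among 789 mural cells, whose median depth of 4288 UMIs was near the 4128 of the members, 0 had one, for which the exact interval reaches 0.466%.

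Spock3, which encodes a testican proteoglycan, stood at 141 CPM against 2.39 CPM (ratio 59.1, 40.6 to 87.5). Insc, which encodes the spindle-orientation adaptor inscuteable, stood at 148 against 5.09 CPM (29.2, 21.7 to 39.3). Prph, which encodes the intermediate filament peripherin known from peripheral neurons, stood at 101 against 3.29 CPM (30.8, 21.4 to 44.5). Each was found in a minority of members, Spock3 in 41.88%, Insc in 39.38% and Prph in 32.5%.

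Scx, the tendon transcription factor, stood at 132 CPM in members and 5.26 CPM in other cells (ratio 25.02, 18.5 to 33.8). It was found in 35.0% of members, in 23.5% after thinning and in 0.127% of mural cells. Its highest value in a member was 10.7 UMIs per 10000, and 104 members were at 0.

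Timp1, the tissue inhibitor of metalloproteinases, and Ptn, the heparin-binding growth factor pleiotrophin, were also among the 20 leading genes. Timp1 stood at 1064 against 60.6 CPM (17.55, 15.96 to 19.3). Ptn stood at 1399 against 91.6 CPM (15.3, 14.1 to 16.6), and was found in 85.0% of members, 75.2% after thinning and 3.93% of mural cells. Spon2, which encodes the matrix protein spondin-2, stood at 1011 against 86.7 CPM.

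The rest of the 20 leading genes were Rflnb, Pla2g7, Gas2, Etv4, Rapgef4, Cdh2, Crispld1, Col11a1, Zfp185, Scg3, Wisp1 and Edil3, with ratios from 12.5 for Col11a1 to 22.7 for Rflnb. They include the gene of the adhesion protein N-cadherin (Cdh2), a transcription factor gene of the ETS family (Etv4), and the secretory granule gene Scg3, whose 172 UMIs came from 28.1% of members.

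**Figure D2:**
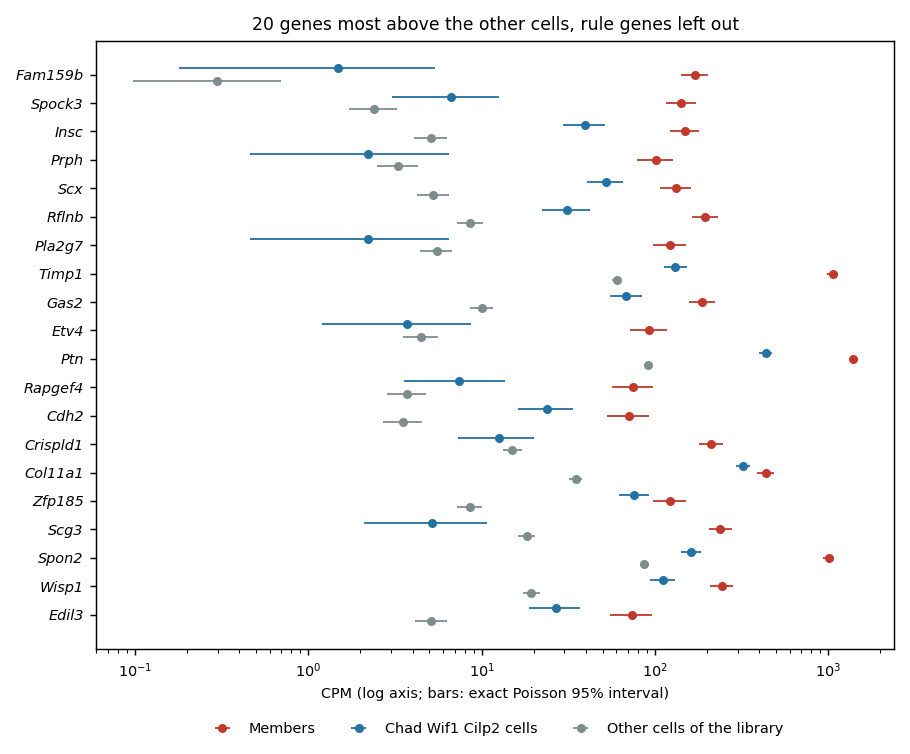
Levels in CPM on a log axis of the 20 genes with the highest lower bound of the ratio to other d0 cells, for the members (red), the Chad Wif1 Cilp2 cells (blue) and the other cells of the library (grey), with exact Poisson 95% intervals. Members lie above both groups for each gene, from 70.7 CPM for Cdh2 to 1399 CPM for Ptn, and the Chad Wif1 Cilp2 cells lie nearest for Col11a1.

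The 10 genes with the lowest ratios to the other cells were low in the Chad Wif1 Cilp2 cells as well. Pi16, a gene of a fibroblast progenitor state, stood at 97.1 CPM in members, 1201 CPM in other cells and 152 CPM in Chad Wif1 Cilp2 cells. The chemokine gene Ccl11 stood at 119, 1404 and 131 CPM in the same order, the surface antigen gene Ly6c1 at 51.3, 625 and 94.3 CPM, and the matrix gene Efemp1, with 3 UMIs in members, at 4.16, 138 and 10.4 CPM. Gas7, Ifi204, Ifi205 and Ifi207, the last 3 being interferon-inducible genes, were also among the 10 lowest. Cadm3 and Cp had no UMI in members and stood at 53.8 and 42.4 CPM in the other cells, at least 12.9-fold and 10.2-fold lower against a floor of 3 UMIs, and at 5.20 and 11.9 CPM in the Chad Wif1 Cilp2 cells.

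Among tendon transcription factors, 6 of 7 genes passed the UMI minimum, and 2 of these (Scx and Mkx) stood at least 4-fold higher and 0 lower, with a median ratio of 2.23. Mkx stood at 115 against 10.7 CPM. Egr2 stood at 230 against 77.4 CPM and Egr1 at 2142 against 1630 CPM. Six2, which did not reach the minimum, stood at 31.9 against 1.26 CPM.

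Fibrillar collagens had 1 of 8 genes 4-fold higher (Col11a1, 437 against 34.9 CPM) and 0 lower, with a median ratio of 0.980. The main tendon collagen genes were higher by less. Col1a1 stood at 9138 against 3434 CPM and Col1a2 at 9510 against 3917 CPM. Col24a1, under the minimum, stood at 18.0 against 0.658 CPM.

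Of 11 collagen VI, fibril-associated and other collagen genes, 1 stood 4-fold higher, Col12a1 of a fibril-associated collagen (438 against 87.5 CPM), and 4 lower, among them Col15a1 (29.1 against 338.5 CPM), with a median ratio of 0.909. Col6a1 at 1070 against 1053 CPM and Col6a2 at 904 against 994 CPM were near level. Col26a1, under the minimum, stood at 101 against 1.26 CPM. Of 11 basement membrane genes 0 were higher and 2 lower (median ratio 0.537), with Col4a1 at 403.5 against 555 CPM, Col4a2 at 297 against 302 CPM, Lama4 at 36.1 against 75.9 CPM and Lamb1 at 51.3 against 107 CPM.

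The small leucine-rich proteoglycans, which regulate fibril width, had 1 of 9 genes higher and 0 lower (median ratio 1.74). The higher gene was Fmod, which encodes fibromodulin, at 5484 against 1078 CPM. Dcn, which encodes decorin, was near level at 13420 against 12940 CPM. Epyc, under the minimum, had 26 UMIs in members, which all came from 1 cell, and the other 159 members were at 0.

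Among 19 matricellular and elastic fibre genes 4 were higher and 3 lower, with a median ratio of 1.36. The higher ones were Tnc (tenascin-C, 412 against 38.6 CPM), Postn (periostin, 1549 against 162 CPM), Cilp (968 against 219 CPM) and Emilin1 (199.7 against 37.6 CPM). The lower ones were Fbn1 (fibrillin-1, 122 against 638.5 CPM), Eln (elastin, 44.4 against 329 CPM, and 26.7 CPM without the member that held 13 of its 32 UMIs) and Efemp1. Sparc, the collagen-binding protein gene, stood at 18300 against 6430 CPM and Fn1, of fibronectin, at 1740 against 952 CPM. In the Chad Wif1 Cilp2 cells Tnc stood at 366 CPM, Sparc at 29940 CPM and Fn1 at 413 CPM. Against those cells 2 of the 19 genes were 4-fold higher in members and 0 lower, with a median ratio of 0.702. Fbn2, under the minimum, stood at 43.0 against 2.75 CPM.

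Of 20 collagen modification and secretion genes 0 were higher and 2 lower (median ratio 1.48), with Serpinh1, the collagen chaperone gene, at 2518 against 1714 CPM, Pcolce at 2737 against 1317 CPM, Pcolce2 at 15.3 against 158 CPM and Adamts2 at 33.3 against 119 CPM. Of 21 TGF-beta and BMP pathway genes 0 were higher and 4 lower (median ratio 0.856), with Id3 at 1645 against 1241 CPM, Tgfbr3 at 129 against 77.1 CPM and Ltbp4 at 116.5 against 467 CPM. Mstn, the gene of the muscle growth inhibitor myostatin, had 17 UMIs in members, under the minimum, and stood at 23.6 against 0.718 CPM, with 8 of the 17 from 1 of the 7 members that had any.

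Of 4 YAP target genes 1 was higher and 0 lower (median ratio 2.32), with Ctgf at 377 against 58.0 CPM and Cyr61 at 1977 against 694 CPM. Against the Chad Wif1 Cilp2 cells 0 YAP target genes were 4-fold higher or lower, with a median ratio of 1.09. Of 12 metalloproteinase and inhibitor genes 1 was higher (Timp1) and 2 lower (median ratio 0.721), with Mmp2 at 1319 against 629 CPM and Adamts5 at 47.2 against 203 CPM. Of 12 integrin and laminin receptor genes 0 were higher and 1 lower (median ratio 0.598), with Itgb1 at 252 against 205 CPM, Itgav at 52.7 against 62.0 CPM and Itga8 at 15.3 against 40.7 CPM. Itga10, a collagen-binding integrin gene under the minimum, stood at 41.6 against 2.51 CPM.

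The immediate early genes, which respond within minutes to stimuli that include tissue dissociation, had 0 of 11 genes past 4-fold either way and a median ratio of 1.01. Fos stood at 8055 against 4748 CPM, Junb at 1615 against 1819 CPM and Atf3 at 609 against 1119 CPM. Their summed level was 16540 CPM in members and 13400 CPM in other cells. The Hox genes had 0 of 7 past 4-fold either way and a median ratio of 0.784, with Hoxc10 at 34.7 against 36.9 CPM, Hoxa10 at 19.4 against 34.4 CPM and Hoxd8 at 22.2 against 12.1 CPM. Hoxa11, Hoxa13 and Hoxd13 had no UMI in members.

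Markers of progenitor and mural cells were lower in members. The FAP/MP list (fibro-adipogenic and mesenchymal progenitors) had 0 of 5 genes higher and 4 lower, and summed to 362 CPM in members and 2416 CPM in other cells. Ly6a stood at 103 against 1017 CPM, Cd34 at 99.8 against 714 CPM and Pdgfra at 15.3 against 164 CPM. The mural list had 0 of 7 higher and 3 lower, summed to 943 against 3766 CPM, and Kcnj8 and Abcc9 had no UMI in members, with Acta2 at 574 against 2491 CPM, Mylk at 161 against 502.5 CPM and Des at 15.3 against 72.5 CPM. The mural sum was uneven, at 6553 CPM in 10 members that clustered apart, as described below. It was 336 and 357 CPM in the other groups of 104 and 46 members. In the Chad Wif1 Cilp2 cells the mural list summed to 971 CPM. Endothelial genes summed to 15.3 CPM (Tek 6.93, Cdh5 6.93 CPM) with Pecam1 and Emcn at 0, and hematopoietic genes to 8.32 CPM (Cd68 4.16, Lyz2 2.77 CPM) with Ptprc, Itgam and Csf1r at 0. The 5 myogenic genes, Pax7 and Myod1 among them, had no UMI in members.

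Muscle fibre genes were few but above the other cells, with 0 of 2 tested genes past 4-fold. The list summed to 107 CPM in members, 39.6 CPM in other cells and 17.1 CPM in Chad Wif1 Cilp2 cells, and 12 of its 13 genes had a UMI in members, with Tnnc2 at 19.4, Tnnt3 at 13.9 and Myl1 at 13.9 CPM. Of the muscle fibre genes known from the junction, which summed to 26.4 CPM in members and 53.7 CPM in other cells, 0 of 2 tested were higher and 1 lower. Xirp2, under the minimum, had 8 UMIs in members (11.1 against 0.479 CPM), Itga7 stood at 9.71 CPM, and Csrp3 and Nrap had none. Itga7 was without a UMI in 156 of the 160 members and in 479 of the 789 mural cells. The sum in other cells therefore includes Itga7 of mural cells. The part of RNA from muscle fibres in these values was not tested.

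The 1 glial gene tested, S100b, was lower, at 5.55 against 26.4 CPM, and Mbp and Sox10 had no UMI in members. Perineurial genes summed to 19.4 CPM (0 of 2 higher, 1 lower, Slc2a1 at 18.0 and Cldn1 at 1.39 CPM). Chondrocyte genes summed to 49.9 against 31.9 CPM in other cells (1 of 3 higher, 0 lower), with Col2a1 at 33.3 against 6.70 CPM and Col9a2 at 9.71 CPM, and Acan, Matn1 and Hapln1 at 0. Osteoblast genes summed to 147 against 112.6 CPM, with 0 of 4 past 4-fold, Bglap2 at 92.9 and Runx2 at 23.6 CPM, and Sp7 and Dmp1 at 0. The 67 Bglap2 UMIs came from 4 members, 33 of them from 1, and the other 156 members were at 0. In the Chad Wif1 Cilp2 cells both lists were higher, with chondrocyte genes at 180.5 CPM and osteoblast genes at 594 CPM in sum. Synovial and tendon sheath genes had 0 of 4 higher and 2 lower and summed to 656 against 2082 CPM, with Prg4 at 225 against 135 CPM, Tppp3 at 313 against 962 CPM, Has1 at 103 against 840 CPM and Cd55 at 15.3 against 146 CPM. Adipocyte genes had 0 of 2 higher and 1 lower, and Lpl at 205 against 378 CPM was the 1 gene of 5 with UMIs in members, Adipoq being at 0.

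Set beside the Chad Wif1 Cilp2 cells, the members were highest in Fam159b, Scg3, Pla2g7 and Postn and lowest in Sfrp4 and Sfrp2. Of the 9071 genes, 166 stood at least 4-fold higher in members (1.83%) and 275 at least 4-fold lower (3.03%), of which 14 and 24 rested on 3 or fewer UMIs in both groups. The median ratio was 1.048. The whole interval lay past 4-fold for 34 genes in each direction. The Chad Wif1 Cilp2 cells were deeper, with a median of 5391 UMIs.

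The 10 leading genes were Fam159b, Scg3, Pla2g7, Postn, Prph, Bdnf, Spock3, Etv4, Crispld1 and Kcnk2. Fam159b had 2 UMIs in the Chad Wif1 Cilp2 cells (1.49 CPM, ratio 115, 31.1 to 959). Scg3 stood at 238.5 against 5.20 CPM (45.9, 21.8 to 116) and Pla2g7, a lipoprotein-associated phospholipase gene, at 122 against 2.23 CPM. Postn stood at 1549 against 75.8 CPM (ratio 20.5, 16.7 to 25.3).

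Bdnf, which encodes brain-derived neurotrophic factor, stood at 128 CPM in members, 3.71 CPM in Chad Wif1 Cilp2 cells and 128 CPM in mural cells, so it set the members apart from the former but not from the latter. Kcnk2, of a mechanosensitive potassium channel, stood at 81.8 against 4.46 CPM. Basement membrane genes were higher against these cells, 3 of 11 (Col4a1 at 403.5 against 90.6 CPM, Col4a2 at 297 against 70.55 CPM and Lamb1 at 51.3 against 10.4 CPM), with a median ratio of 1.52.

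Scx was also higher in members, by less, and Mkx was found in a like share of cells. Scx stood at 132 CPM in members and 52.0 CPM in Chad Wif1 Cilp2 cells (2.53, 1.84 to 3.50), and Mkx was found in 38.1% and 35.9% of cells. Of the 8 fibrillar collagen genes tested 0 stood 4-fold higher or lower, with a median ratio of 1.233, and Col11a1 was higher in members (ratio 1.355, 1.168 to 1.57). The pair of genes for collagen I lay the other way, as did Fmod. Col1a1 stood at 9138 CPM in members and 21580 CPM in Chad Wif1 Cilp2 cells, Col1a2 at 9510 and 21630 CPM, and Fmod at 5484 and 11580 CPM.

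Among the 10 lowest genes against the Chad Wif1 Cilp2 cells were Sfrp4, Sfrp2, 1500015O10Rik, Dlx5, Pcolce2, Cpz, Olfr655, Dio2 and Bglap. The secreted Wnt modulator gene Sfrp4 stood at 18.0 against 795 CPM (ratio 0.0227, 0.0120 to 0.0390), with 9 of its 13 UMIs in members from 1 cell, and Sfrp2 at 1.39 against 88.4 CPM. 1500015O10Rik, now named Ecrg4, stood at 252 against 3210 CPM. Dlx5 had no UMI in members, at least 12.85-fold lower against the floor of 3 UMIs. Olfr655 had none either, but its 61 UMIs in the Chad Wif1 Cilp2 cells came from 3 of the 237 cells, 24 of them from 1. Bglap, of osteocalcin, stood at 19.4 CPM in members, from 2 cells, against 253 CPM, and Bglap reads may be shared with its near copies.

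The members were not uniform. All retained d0 cells were clustered without the 12 genes of the rule. At a resolution of 0.5, 152 of the 160 members lay in 1 cluster of 460 cells that also held 221 Chad Wif1 Cilp2 cells. At a resolution of 1 that cluster split, and 104 members lay in a cluster of 107 cells with 0 Chad Wif1 Cilp2 cells. Another 46 members lay in a cluster of 280 cells with 172 Chad Wif1 Cilp2 cells, and 10 lay elsewhere. The clusters were computed from the genes described next, so these values carry no test.

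The 104 members of their own cluster held the leading genes at higher levels. Each of the 20 leading genes was higher in them than in the 46 members among the Chad Wif1 Cilp2 cells, and for 16 the interval of the ratio lay above 1. The 20 genes were ranked on all members, and the 104 held 500043 of their 721173 UMIs. These counts are therefore a description and no test. Fam159b was found in 46 of the 104 and in 0 of the 46, at 230 CPM against 0. Scg3 stood at 340 against 6.61 CPM (1 UMI), Timp1 at 1400 against 165 CPM and Postn at 1992 against 172 CPM. Scx stood at 178 against 39.7 CPM.

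Mgp, which encodes the calcification inhibitor matrix Gla protein and was named after its values were seen, stood at 18530 against 5951 CPM, and at 2330 CPM in Chad Wif1 Cilp2 cells. Col22a1 stood at 692 against 132 CPM and Chodl at 2186 against 972 CPM. Thbs4 (5863 against 4946 CPM), Tnmd (5094 against 4377 CPM) and Mkx (118 against 145.5 CPM) differed by little.

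The 46 members among the Chad Wif1 Cilp2 cells had 1500015O10Rik at 1018 CPM against 24 CPM in the 104, and Fmod at 11620 against 4226 CPM. Fmod was thus near its level in the Chad Wif1 Cilp2 cells (11580 CPM). Angptl7 stood at 1084 CPM in the 46 against 20 CPM, but 137 of its 164 UMIs there came from 1 cell, and without that cell it stood at 186 CPM, below the 1223 CPM of the Chad Wif1 Cilp2 cells. The 46 were shallower, with a median of 3210 UMIs against 4650 in the 104. The part of depth in this split was not tested.

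The 10 members that lay elsewhere had a median of 6142 UMIs, mural markers at 6553 CPM against 336 CPM in the 104, and a median of 7.52% mitochondrial UMIs against 2.62%. Their Tnmd stood at 916 CPM and their Scx at 0. Tnmd was uneven among them on the per-cell scale used for the markers above. It stood at 0.874, 1.847, 2.129, 2.347, 2.87 and 3.583 in some, each with the same value for Thbs4. It stood at 8.845, 13.78, 14.55 and 30.61 in the others, against a median of 41.19 over all members. A Tnmd UMI was also found in 28.14% of the 789 mural cells, and a Ptx4 UMI in 7.48%. Whether the barcodes of these 10 members hold more than 1 cell was not tested.

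**Figure D3:**
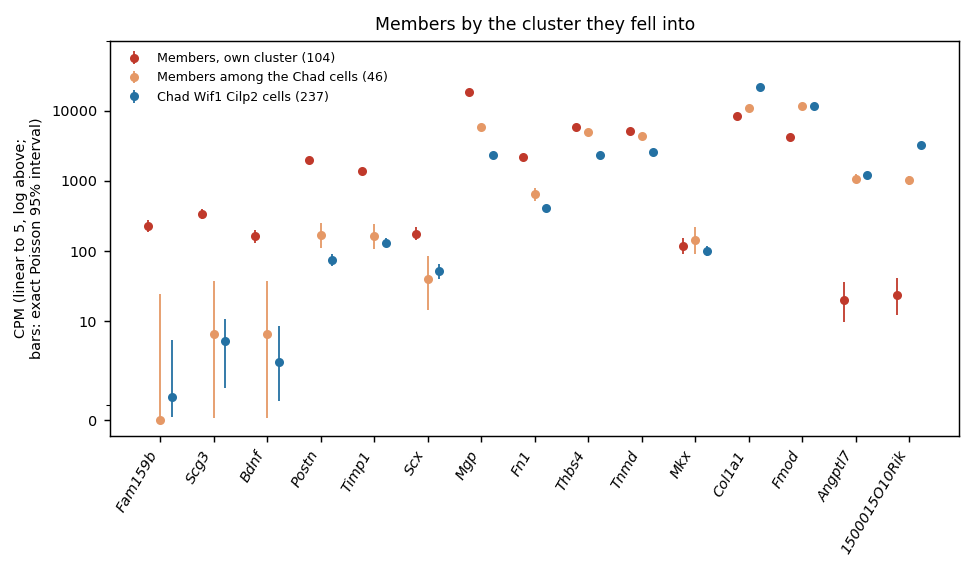
Levels in CPM, on an axis linear to 5 and logarithmic above, of 15 genes in the 104 members of their own cluster (red), the 46 members that clustered with Chad Wif1 Cilp2 cells (orange) and the 237 Chad Wif1 Cilp2 cells (blue), with exact Poisson 95% intervals. Fam159b, Scg3, Bdnf, Postn and Timp1 are high only in the red group among these 3, while 1500015O10Rik is low in it. Most of the Angptl7 of the orange group (137 of 164 UMIs) is from 1 cell.

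Detection of more markers went with the split. Of the 20 leading genes 19 were higher in the 119 members with 5 or 6 markers than in the 41 with 3 or 4, and for 14 the interval of the ratio lay above 1. This division used genes of the rule, and the 20 genes were ranked on all members together, so these counts carry no test. Mural markers stood at 2048 CPM in the 41 against 634 CPM in the 119 (Acta2 at 1275 against 378 CPM), and the median depths were 3242 and 4591 UMIs. Their part in this difference was not tested. A division by genes of the second set was less one-sided. It set 54 members with 0 genes of that set against 41 with 3 or 4 of them. Of the 20 leading genes 12 were higher in the 54 and 8 lower, with the interval above 1 for 7 and below 1 for 2. In the 54 and the 41, Fam159b stood at 188 and 182 CPM, Scx at 147 and 119.6 CPM, Timp1 at 1483 and 676 CPM and Scg3 at 491.5 and 41.6 CPM. Scg3 differed more here (ratio 11.8) than in the division by markers (5.07). Fam159b was thus found at like levels whether or not the second set was detected.

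After injury few cells met the same rule on equal depth. The other libraries held far more UMIs per cell, with medians from 15688 to 34949, so each cell was thinned to 2000 UMIs before the rule was applied. Whether sequencing or the RNA content of the cells set this difference was not tested. Then 153 of 3888 d0 cells met it (3.94%, 3.35 to 4.595%), 62 of 5364 in the library labelled d3 post-fracture (1.16%, 0.887 to 1.48%), 19 of 6118 in that labelled d5 post-fracture (0.311%, 0.187 to 0.485%), 7 of 1438 in that labelled d3 post-polytrauma (0.487%, 0.196 to 1%) and 105 of 11517 in that labelled d5 post-polytrauma (0.912%, 0.746 to 1.10%). Thinning left out 744 d0 cells and 30 to 424 cells of each other library. On all UMIs the numbers were 160, 138, 142, 29 and 413, or 3.45, 2.47, 2.29, 1.975 and 3.46% of retained cells. Without thinning, the share in the library labelled d5 post-polytrauma was thus level with that at d0. The cell numbers given by the study match an exchange of the libraries labelled d5 post-fracture and d3 post-polytrauma, so these are named by their labels.

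In the thinned cells that met the rule after injury, Chodl, Col22a1 and Tnmd stood lower than at d0, and Scx did not in each library. The libraries are given in the order d3 and d5 post-fracture, then d3 and d5 post-polytrauma, by their labels. Chodl stood at 298, 52.6, 214 and 66.7 CPM, against 2023 CPM in the 153 thinned d0 cells, with those in the libraries labelled d5 post-fracture and d3 post-polytrauma each from 1 cell. Col22a1 had 0, 1, 1 and 19 UMIs in these cells against 167 at d0, and Fam159b 1, 0, 1 and 1 against 40. Tnmd stood at 1379, 1474, 1429 and 1652 CPM against 4915 CPM, and Thbs4 at 3895, 4026, 4857 and 4148 CPM against 5549 CPM.

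Scx, which is not a gene of the rule, had 3 and 0 UMIs in the thinned cells of the libraries labelled post-fracture. It had 5 UMIs in 4 of the 7 cells of that labelled d3 post-polytrauma. In that labelled d5 post-polytrauma it stood at 329 CPM (256 to 416) against 157 CPM (116 to 208) at d0, so it was higher there. Over all retained cells and all UMIs, Scx stood at 10.5 CPM at d0. In the other libraries, in the same order, it stood at 2.33, 0.649, 45.7 and 35.6 CPM. The higher level in the libraries labelled post-polytrauma was thus not particular to cells that met the rule. With the labels in doubt exchanged, the libraries at 45.7 and 35.6 CPM would both be d5, and those at 2.33 and 0.649 CPM both d3. Injury and day can therefore not be told apart for this difference.

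On all UMIs, where the rule admits other cells in the deeper libraries, the levels were lower still for the markers. Chodl stood at 99.8, 10.9, 75.8 and 8.73 CPM against 1757 CPM, Tnmd at 644, 316, 858 and 737.5 CPM against 4538 CPM, and Thbs4 at 1985, 1877, 2806 and 3066 CPM against 5339 CPM. Scx stood at 17.4, 7.38, 114 and 242 CPM against 132 CPM. Fam159b had 1, 2, 10 and 4 UMIs, and the 10 in the library labelled d3 post-polytrauma came from 1 cell, as did its 13 Col22a1 UMIs. Of the thinned cells that met the rule, 31 of 62, 15 of 19, 4 of 7 and 68 of 105 had none of Chodl, Col22a1 and Ptx4, against 8 of 153 at d0.

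Cells with Chodl, Col22a1 and Ptx4 together numbered 54 of 3888 thinned d0 cells (1.39%) and 0 in each of the libraries labelled d3 post-fracture, d5 post-fracture and d3 post-polytrauma, for which the exact intervals reach 0.06875%, 0.0603% and 0.256%. The library labelled d5 post-polytrauma held 1. In these pools, fewer such cells and less RNA of these genes per cell cannot be told apart.

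**Figure D4:**
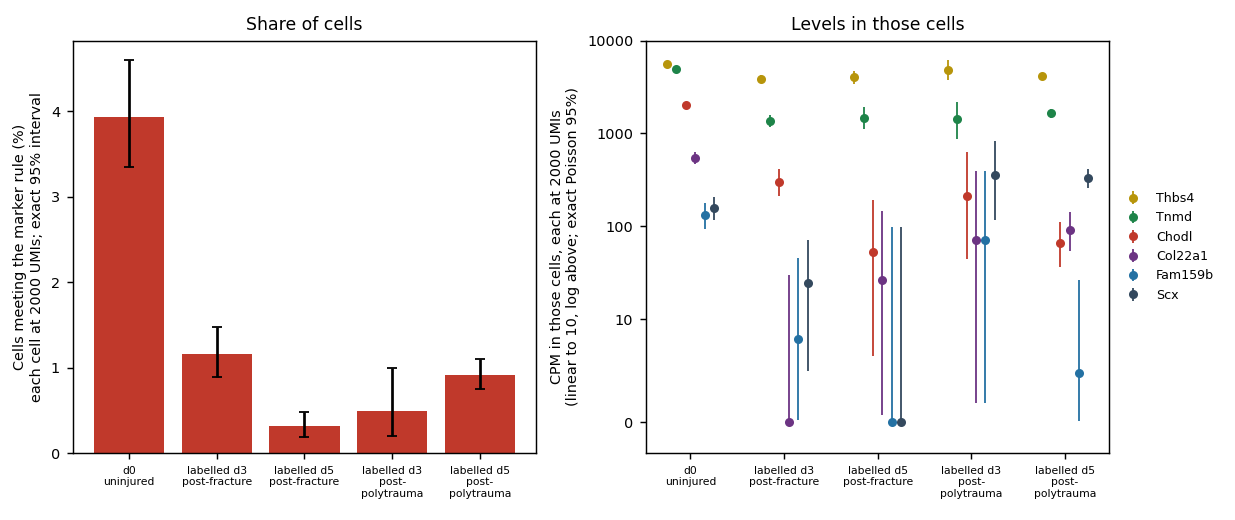
Left, the percent of cells meeting the marker rule in each of the 5 libraries with every cell at 2000 UMIs, with exact binomial 95% intervals. Right, CPM of 6 genes in those thinned cells, on an axis linear to 10 and logarithmic above, with exact Poisson 95% intervals. The d0 library has 3.94% and Chodl at 2023 CPM, above each other library.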

How the data were processed

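Single-cell 3' RNA sequencing of FACS-sorted GFP+ cells gave 1 library per condition. Per the labels and methods, Cell Ranger was run by the authors against mm10. The matrix header gives version 3.1.0, while the methods of the study name a different version. The deposited values are raw counts of UMIs per gene and barcode, without normalization, and the submitters' notes also name Seurat 3.1.2. The d0 library held 5653 barcodes and 18247307 UMIs, and 735 barcodes within the gene and mitochondrial limits were left out for under 1000 UMIs.

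UMIs were summed over the cells of a group and scaled to CPM, with exact Poisson intervals, exact conditional intervals of ratios and Clopper-Pearson intervals of shares, all at 95%. A ratio of 4 among genes with at least 100 UMIs counted as higher or lower, without the 12 genes of the rule and the reporters. Named genes were the rule genes, the 20 highest and 10 lowest by interval bound against other cells, 10 and 10 against Chad Wif1 Cilp2 cells, and up to 4 from each list (the 2 most abundant in members and the 2 with the most distant ratio among those with at least 10 UMIs in members). Other genes past 4-fold in a list were named only to resolve its count, after their values were seen, as was Mgp. The members, lists and alternatives were chosen with earlier results of these data known. Mural cells had at least 3 mural markers and were neither members nor Chad Wif1 Cilp2 cells. Clusters used scanpy 1.11.5 with 2000 variable genes, 20 principal components and 20 neighbours. Scrublet marked 3 of the 5653 barcodes, too few for the caller to have worked, so doublets were not removed. Barcodes shared with another library, unless 10 times deeper here, were kept. Gene positions came from GENCODE M21 and promoter stretches from RefSeq, both on GRCm38. The functions were tested on simulated data. Some named-gene results are not reported here.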

Additional observations from a re-analysis of the deposited data

How the results depend on the processing

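No paired analysis was possible because each condition has 1 library, and no replicate could be left out. Intervals cover counting error only, and low genes such as Fam159b rest on few UMIs. The number of members moved from 160 to 245 with at least 2 markers and to 323 without the comparison of both sets; the other 6 settings gave 146 to 173. Against the other d0 cells, the counts of genes at least 4-fold higher and lower, 93 and 543, became 962 and 6109 with every gene of at least 1 UMI, 31 and 189 with at least 500 UMIs (other genes are tested there by construction), and 48 and 169 with at least 2 markers. Against the Chad Wif1 Cilp2 cells, 166 and 275 became 438 and 622 after thinning to 2000 UMIs, 269 genes were higher with at least 4 markers of a set, and 475 were lower with only the members of their own cluster, a setting chosen after seeing the data. The cause of the moves on thinning and marker number was not tested. The share of members with Fam159b moved from 30% to 16.99% and with Scx from 35.0% to 23.53% on thinning. On thinning before the rule, the numbers in the libraries labelled d3 and d5 post-fracture and d3 and d5 post-polytrauma moved from 138 to 62, 142 to 19, 29 to 7 and 413 to 105. With the labels of the libraries in doubt exchanged, d5 post-fracture had 29 and d3 post-polytrauma 142. Of 480 ratios of 50 named gene comparisons under these settings, 410 lay within the interval of the reported ratio, 70 outside it and 0 changed direction. Leaving out the member that held the most UMIs of a gene, a setting chosen after seeing the data, moved 0 of the 20 leading genes by over 1.5 times. It moved Angptl7 from 241 to 51.75 CPM, Bglap2 from 92.9 to 47.5, Eln from 44.4 to 26.7, Mstn from 23.6 to 12.6, Wif1 from 22.2 to 13.97, Bglap from 19.4 to 6.99 and Sfrp4 from 18.0 to 5.64 CPM, and Epyc to 0.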
